A study of Arabidopsis thaliana with 30 samples.

Results

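Early light-induced proteins and one-helix proteins are small thylakoid membrane proteins related to the light-harvesting antenna, and the 4 Arabidopsis genes described here were taken as a fixed family by locus: ELIP1 (AT3G22840), ELIP2 (AT4G14690), OHP1 (AT5G02120) and OHP2 (AT1G34000). They are 4 of the 27588 gene loci measured. Transcripts were quantified in 30 libraries from rosette leaves, 3 libraries in each of 10 groups, made up of 5 genotypes under 2 treatments. Plants were grown under 120 µmol of light and, from 2 weeks of age, received every 2 days 10 ml of either 3 mM bicarbonate or water.

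The genotypes were npq4-1, a mutant without the photosystem II subunit PsbS; oePsbS, which overexpresses PsbS; a double line labelled oePsbS, oeCA1, built to overexpress the β-carbonic anhydrase CA1 as well; a triple line labelled oePsbS, oeCA1, oeCA2, built to overexpress CA1 and CA2; and the wild type Col-0. Both carbonic anhydrase constructs were placed in the oePsbS background, so the double and triple lines share the PsbS transgene, and the constructs carried the 35S promoter or the ROLD and 35S promoters. The study worked with several independent transformants per construct. Whether the replicates within a group are individual plants, pooled plants or different transformants is not stated, so the p-values measure only the spread between these libraries.

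ELIPs accumulate transiently when light absorption exceeds its use, during greening, high light, cold and UV-B, and are thought to bind chlorophyll released from damaged or unfinished complexes and to limit photo-oxidation. In Arabidopsis their transcription under blue light and UV-B depends on the cryptochromes, the UV-B receptor UVR8 and the transcription factor HY5. OHP1 and OHP2 each span the membrane once, form a heterodimer, and act with the factor HCF244 in making the photosystem II reaction centre, so green tissue expresses them under ordinary light.

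ELIP1 lies on chromosome 3 at 8084405 to 8085669 on the minus strand, ELIP2 on chromosome 4 at 8418242 to 8419325 on the plus strand, OHP1 on chromosome 5 at 419091 to 419773 on the plus strand and OHP2 on chromosome 1 at 12357910 to 12358966 on the minus strand, in the RefSeq annotation of TAIR10.1. ELIP1, ELIP2 and OHP1 have 3 exons and OHP2 has 2. Their annotated transcripts are 1035, 909, 526 and 824 bases long. The coding sequences of ELIP1 and ELIP2 matched at 78.9% of aligned bases and those of OHP1 and OHP2 at 70.1%. Pairs of an ELIP with an OHP matched at 63.1% to 68.6%, so the value of the OHP pair lies close to theirs. No transcript shared a run of 31 bases with another member, so the values of the 2 ELIPs rest on distinct sequence.

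The 250 bases before the annotated start of each gene are shown because the 2 ELIPs differed in their response and the 2 OHPs varied together. They run 5′ to 3′ on the gene's own strand, from chr3:8085670-8085919 (minus), chr4:8417992-8418241 (plus), chr5:418841-419090 (plus) and chr1:12358967-12359216 (minus) of TAIR10.1. Capitals mark the G-box CACGTG, the I-box core GATAA (on the other strand it reads TTATC, as in the ELIP1 window) and the dehydration and cold element core CCGAC. Both strands were searched.
ELIP1 promoter: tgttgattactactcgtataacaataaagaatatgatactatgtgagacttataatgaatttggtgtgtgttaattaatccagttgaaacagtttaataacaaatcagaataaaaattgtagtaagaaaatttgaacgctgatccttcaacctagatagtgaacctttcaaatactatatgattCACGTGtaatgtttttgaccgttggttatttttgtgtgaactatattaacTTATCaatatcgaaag
ELIP2 promoter: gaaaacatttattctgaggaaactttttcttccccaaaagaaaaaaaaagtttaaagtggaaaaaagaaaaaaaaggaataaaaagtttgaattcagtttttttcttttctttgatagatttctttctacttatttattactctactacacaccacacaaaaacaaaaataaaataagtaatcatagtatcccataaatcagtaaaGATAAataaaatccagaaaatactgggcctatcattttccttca
OHP1 promoter: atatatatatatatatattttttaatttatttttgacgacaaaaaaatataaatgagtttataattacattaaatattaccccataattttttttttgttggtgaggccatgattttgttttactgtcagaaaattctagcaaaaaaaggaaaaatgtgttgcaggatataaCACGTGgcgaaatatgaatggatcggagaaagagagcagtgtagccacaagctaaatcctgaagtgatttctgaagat
OHP2 promoter: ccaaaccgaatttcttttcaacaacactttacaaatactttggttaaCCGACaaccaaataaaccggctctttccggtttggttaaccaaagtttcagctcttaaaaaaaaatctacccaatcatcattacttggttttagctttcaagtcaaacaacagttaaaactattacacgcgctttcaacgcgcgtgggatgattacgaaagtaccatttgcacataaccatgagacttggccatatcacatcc
A G-box, the palindrome whose ACGT core is a contact sequence of bZIP factors such as HY5, stood in the ELIP1 window at -66 to -61 and in the OHP1 window at -78 to -73 from the start. The ELIP2 and OHP2 windows held no match to the G-box or to its core ACGT. The I-box core was found in ELIP1 at -16 to -12 and in ELIP2 at -44 to -40, and the cold element core in OHP2 at -203 to -199, while the evening element AAAATATCT was in none of the 4. Of 27443 Arabidopsis windows of this length, 6.49% held CACGTG, 44.1% ACGT, 54.9% GATAA, 12.0% CCGAC and 2.36% AAAATATCT. These matches describe the sequence only.

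The libraries held 15346368 to 18326430 estimated counts each, and no 2 of the 435 library pairs had identical values. PsbS transcripts were at 0.120 to 6.28 CPM (estimated counts scaled to a common library size, TMM-normalised) in npq4-1 plants on water, against 1513 to 1740 CPM in Col-0 on water, and above the Col-0 range in every group with the PsbS transgene. CA1 reached 12947 and 14747 CPM in replicates 1 and 2 of the bicarbonate-treated double line, but 2409 CPM in the library labelled replicate 3. The value of 2409 CPM lies in the range of Col-0, npq4-1 and oePsbS on water (2345 to 3059 CPM). It is below all bicarbonate libraries of these genotypes (2941 to 4288 CPM). Tests that rest on this library are therefore also given without it. In the line labelled triple, CA1 was at 3342 to 3895 CPM on bicarbonate, against 2941 to 4288 CPM in Col-0 and 3627 to 4188 CPM in oePsbS. On water it was at 3611 to 4071 CPM, above Col-0 (2900 to 3059 CPM) and oePsbS (2418 to 2564 CPM). This excess on water was smaller than that of the double line (10940 to 16804 CPM). CA2 in the triple line was at 1604 to 1883 CPM on water, against 1184 to 1265 CPM in Col-0, and at 1813 to 1919 CPM on bicarbonate, against 1331 to 1834 CPM in Col-0. All 5 leaf markers were detected in every group, with a summed level of 49816 to 62220 CPM. The 5 root markers summed to 27.2 to 34.9 CPM, nearly all from SCR, which leaf tissue also expresses, while the root-hair factor RHD6 was at 0 in all 30 libraries. The 5 floral organ markers summed to 0.852 to 17.5 CPM and varied between groups.

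The one-helix genes were far more abundant than the ELIPs. On the length-corrected TPM scale, which divides by transcript length, OHP1 had over the 30 libraries a median of 459 TPM (407 to 560) and OHP2 of 325 TPM (289 to 375). ELIP1 had a median of 10.7 TPM (6.56 to 26.1) and ELIP2 of 2.42 TPM (0.354 to 6.10). By mean TPM, OHP1 and OHP2 stood at percentiles 99.1 and 98.4 of the 23993 loci detected, ELIP1 at 58.9 and ELIP2 at 34.3.

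The spread between libraries ran the other way. The highest group mean exceeded the lowest 3.10-fold in CPM for ELIP1 and 3.57-fold for ELIP2, but 1.34-fold for OHP1 and 1.20-fold for OHP2. The ELIP2 libraries held only 4 to 72 counts, and the lowest of these has an exact 95% Poisson interval of 1.09 to 10.2 counts, covering counting error only. ELIP1 held 83 to 351 counts, OHP1 1686 to 2558 and OHP2 2046 to 2893. The gene-wise biological coefficient of variation was 0.171 for ELIP1, 0.275 for ELIP2, 0.0828 for OHP1 and 0.0805 for OHP2, beside 0.111 for all genes together.

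**Figure D1:**
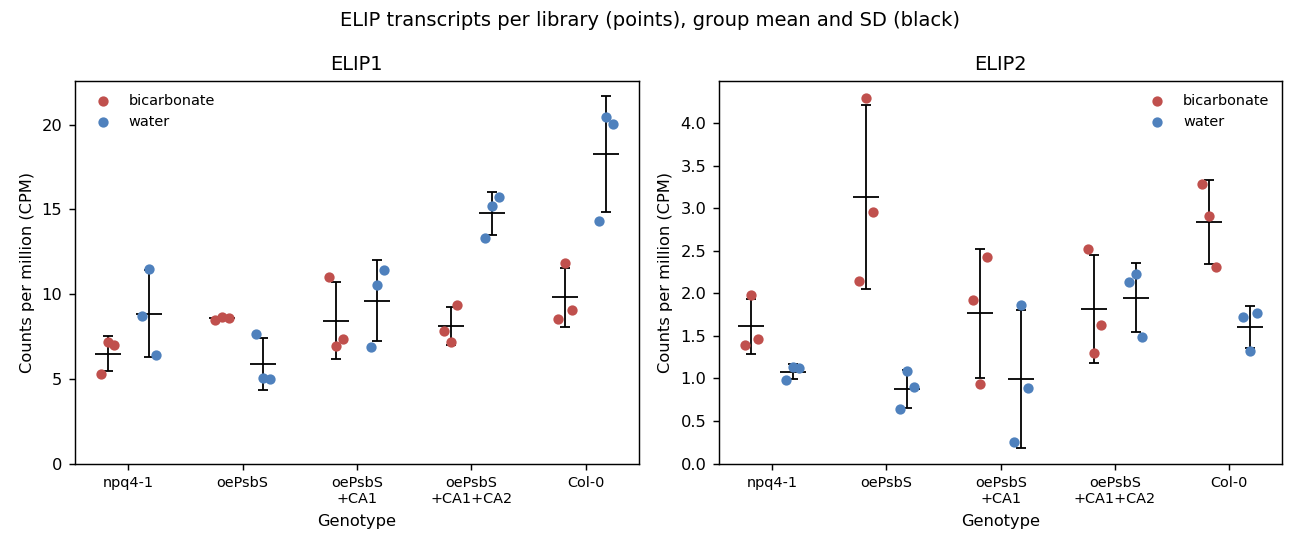
TMM-normalised CPM of ELIP1 (left) and ELIP2 (right) on linear axes from 0, 1 point per library (red bicarbonate, blue water), with the mean and SD of each group of 3 in black, where +CA1 and +CA1+CA2 name the double and triple lines. ELIP1 was highest in water-treated Col-0 and triple-line plants, and ELIP2 was higher with bicarbonate than with water in the mean of every genotype but the triple line.

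In plants given water, ELIP1 differed between genotypes. It was at 8.71, 11.5 and 6.39 CPM in npq4-1 and at 7.66, 5.03 and 4.96 CPM in oePsbS, against 14.3, 20.5 and 20.0 CPM in Col-0. Every npq4-1 and every oePsbS library lay below every Col-0 library, and so did the double line, at 6.88, 10.6 and 11.4 CPM. The triple line, at 13.3, 15.2 and 15.7 CPM, overlapped Col-0 and lay above every oePsbS library. Of all genes, 9.77% were lower without overlap in npq4-1 than in Col-0, 12.8% in oePsbS and 6.43% in the double line, and 14.9% were higher without overlap in the triple line than in oePsbS, as were all 4 members. In bulk leaf RNA, fewer cells of a type and less RNA per cell cannot be told apart.

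Differences were tested with edgeR's quasi-likelihood test in the fit of all 30 libraries, and a gene was called when its Benjamini-Hochberg adjusted p was under 0.05 and its log2 fold change was above 1 or below -1. Relative to Col-0 on water, ELIP1 fell in oePsbS, with a log2 fold change of -1.64 ± 0.22 (SE, adjusted p = 5.14e-05), and in npq4-1, with -1.05 ± 0.21 (adjusted p = 0.0208). It was the only one of the 4 members called in either contrast, where 1.24% of the 18999 genes tested were called in oePsbS (0.726% downward) and 0.158% in npq4-1 (0.0579% downward). Both the line without PsbS and the line with more of it had less ELIP1 transcript than the wild type on water. Against npq4-1, oePsbS gave -0.59 ± 0.23 (adjusted p = 0.248), with no member called beside 0.189% of genes. The double line gave -0.92 ± 0.21 against Col-0 (adjusted p = 0.0899) and the triple line -0.31 ± 0.20 (adjusted p = 0.693), and no member was called in these contrasts, where 0.0421% and 0.0211% of genes were called.

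ELIP1 rose in the triple line relative to its parent oePsbS on water, by 1.33 ± 0.22 on the log2 scale (adjusted p = 0.000269), in a contrast where 1.59% of genes were called, 0.663% upward. ELIP1 was the only member called. The double line against oePsbS gave 0.72 ± 0.23 (adjusted p = 0.0583), with no member called beside 0.711% of genes. The oePsbS call held without each library in turn, at -1.87 to -1.54, and the triple-line call likewise, at 1.23 to 1.56. The npq4-1 call was lost without replicate 2 of Col-0 (-0.96, adjusted p = 0.0415), replicate 3 of Col-0 (-0.98, adjusted p = 0.134), replicate 1 of npq4-1 (-1.04, adjusted p = 0.113) and replicate 3 of npq4-1 (-0.87, adjusted p = 0.130). Floral organ markers differed too, and their sum was 7.21 to 17.5 CPM in oePsbS, 0.852 to 5.50 CPM in npq4-1 and 4.22 to 5.08 CPM in the triple line, against 2.82 to 12.2 CPM in Col-0, all on water. All 5 had counts in each of these groups, and only AGAMOUS in npq4-1 was called among the 5 in these contrasts (-1.76 ± 0.31, adjusted p = 0.0117). Their part in the ELIP1 differences was not tested.

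ELIP2 was also low in oePsbS on water, with wider errors. It was at 0.983, 1.14 and 1.12 CPM in npq4-1, at 0.644, 1.09 and 0.897 CPM in oePsbS, and at 1.73, 1.32 and 1.77 CPM in Col-0. The npq4-1 and oePsbS libraries lay below the Col-0 libraries without overlap, as did 9.77% and 12.8% of all genes. Neither contrast passed the test (npq4-1, -0.57 ± 0.42, adjusted p = 0.536, and oePsbS, -0.86 ± 0.43, adjusted p = 0.250). The triple line, at 2.13, 2.23 and 1.48 CPM, lay above every oePsbS library, as did 14.9% of all genes, with 1.14 ± 0.42 (adjusted p = 0.0733). This difference was called when only the 6 libraries compared were fitted (1.14, adjusted p = 0.0491). The double line was the most scattered, at 0.250, 1.86 and 0.889 CPM.

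**Figure D2:**
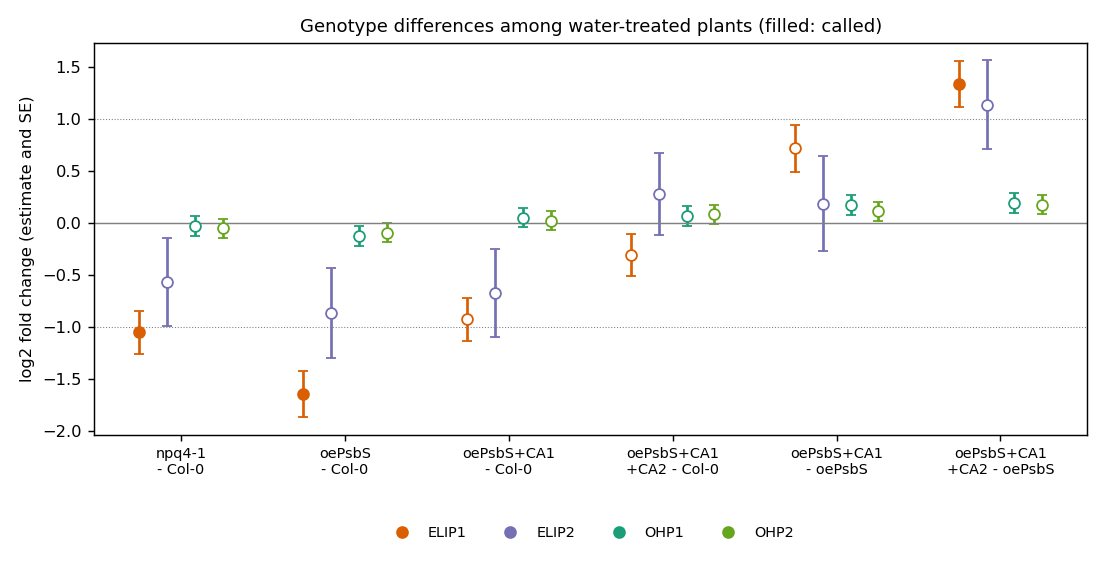
Log2 fold change and SE of the 4 genes between genotypes on water, tested line minus Col-0 or minus oePsbS, with filled points for called genes and dotted lines at 1 and -1. ELIP1 was called at -1.05, -1.64 and 1.33, and the OHP points lie within 0.19 of 0.

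With bicarbonate the genotype means of ELIP1 lay closer together. They spanned 1.51-fold, 6.48 CPM in npq4-1 to 9.81 CPM in Col-0, against a span of 3.10-fold on water. Tested directly, the difference of npq4-1 from Col-0 changed between treatments by 0.45 ± 0.31 (adjusted p = 0.991), so a smaller difference was not shown for npq4-1. The change was not called either for oePsbS (1.45 ± 0.31, adjusted p = 0.0668) or the triple line (0.04 ± 0.30, adjusted p = 0.982). Nor was it for the double line (0.71 ± 0.30, adjusted p = 0.445), or without the library labelled replicate 3 (0.79, adjusted p = 0.471). No ELIP1 contrast between genotypes on bicarbonate was called: npq4-1 against Col-0 gave -0.60 ± 0.22 (adjusted p = 0.661), oePsbS against Col-0 -0.19 ± 0.22 (adjusted p = 0.773), and the triple line against oePsbS -0.08 ± 0.22 (adjusted p = 0.863). In these contrasts 0.0211%, 0.0579% and 1.88% of genes were called. ELIP1 was at 5.28, 7.18 and 6.97 CPM in npq4-1, against 8.54, 11.8 and 9.06 CPM in Col-0, and ELIP2 at 1.39, 1.98 and 1.46 CPM in npq4-1, against 3.29, 2.91 and 2.31 CPM in Col-0 (-0.82 ± 0.38, adjusted p = 0.671), all on bicarbonate. Both ELIPs were thus lower without overlap in npq4-1, as were 5.67% of all genes. ELIP2 in oePsbS overlapped Col-0 on bicarbonate (0.14 ± 0.36, adjusted p = 0.919).

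The bicarbonate response itself, bicarbonate against water within a genotype, was fitted in the 6 libraries of each genotype. In oePsbS, ELIP2 was at 2.15, 4.29 and 2.95 CPM with bicarbonate, against 0.644, 1.09 and 0.897 CPM with water. The bicarbonate libraries were all higher, and ELIP2 rose by 1.83 ± 0.34 on the log2 scale (adjusted p = 0.00720), the only response of the 4 members that was called. In this genotype 1.34% of the 18132 genes tested were called, 0.221% upward. The rise kept its call without each library in turn, at 1.52 to 2.02, and was 1.20 on the log2(TPM + 1) scale, which shrinks changes of low genes.

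ELIP1 in oePsbS was at 8.45, 8.64 and 8.62 CPM with bicarbonate, against 7.66, 5.03 and 4.96 CPM with water. The libraries did not overlap but the difference of 0.56 ± 0.18 was not called (adjusted p = 0.0588). OHP1 and OHP2 were also higher in every oePsbS bicarbonate library, so all 4 members were without overlap in this direction, as were 16.8% of all genes. Floral organ markers summed to 5.54 to 8.19 CPM with bicarbonate and 7.21 to 17.5 CPM with water in oePsbS, with all 5 above 0 and 1 of 5, SEPALLATA3, called lower (-1.21 ± 0.33, adjusted p = 0.0338). Their part was not tested.

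In Col-0 the differences of the 2 ELIPs had opposite signs. ELIP1 was at 8.54, 11.8 and 9.06 CPM with bicarbonate, against 14.3, 20.5 and 20.0 CPM with water, lower in every library (-0.90 ± 0.17, adjusted p = 0.0661). ELIP2 was at 3.29, 2.91 and 2.31 CPM with bicarbonate, against 1.73, 1.32 and 1.77 CPM with water, higher in every library (0.82 ± 0.27, adjusted p = 0.357). Neither was called, in a comparison where 0.313% of 18223 genes were called, 8.47% were lower without overlap and 6.4% higher without overlap. The ELIP1 value was called without replicate 1 of the water libraries (-1.05, adjusted p = 0.0332), and its adjusted p was 0.00108 in DESeq2, 0.0233 in the fit of all libraries and 0.0275 without the low-count filter, and the size of the difference was -0.90 in all 3.

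In the triple line, ELIP1 was at 7.81, 7.18 and 9.36 CPM with bicarbonate, against 13.3, 15.2 and 15.7 CPM with water, lower in every library, as were 8.54% of all genes. Its adjusted p was 0.00989, but the log2 fold change of -0.85 ± 0.13 stayed inside the fold limit. By adjusted p alone 0.336% of genes were lower. The adjusted p of ELIP1 was over 0.05 without replicate 2 of the bicarbonate libraries (0.0580) and without replicate 3 of the water libraries (0.0507). ELIP2 in the triple line was at 2.52, 1.296 and 1.62 CPM with bicarbonate, against 2.13, 2.23 and 1.48 CPM with water, overlapping, with -0.09 ± 0.32 (adjusted p = 0.952). No member was called, beside 1.31% of genes.

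In npq4-1, ELIP1 gave -0.45 ± 0.21 (adjusted p = 0.358) and ELIP2 0.57 ± 0.30 (adjusted p = 0.416), with no member called beside 0.252% of genes. In the double line, ELIP1 was at 11.0, 6.91 and 7.35 CPM with bicarbonate, against 6.88, 10.6 and 11.4 CPM with water, with -0.19 ± 0.22 (adjusted p = 0.762). ELIP2 there was at 1.93, 0.940 and 2.43 CPM with bicarbonate, against 0.250, 1.86 and 0.889 CPM with water, with 0.80 ± 0.55 (adjusted p = 0.572). Both genes overlapped between treatments, no member was called beside 0.775% of genes, and without the library labelled replicate 3 the ELIP1 and ELIP2 responses of the double line were -0.11 (adjusted p = 0.917) and 0.50 (adjusted p = 0.806).

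**Figure D3:**
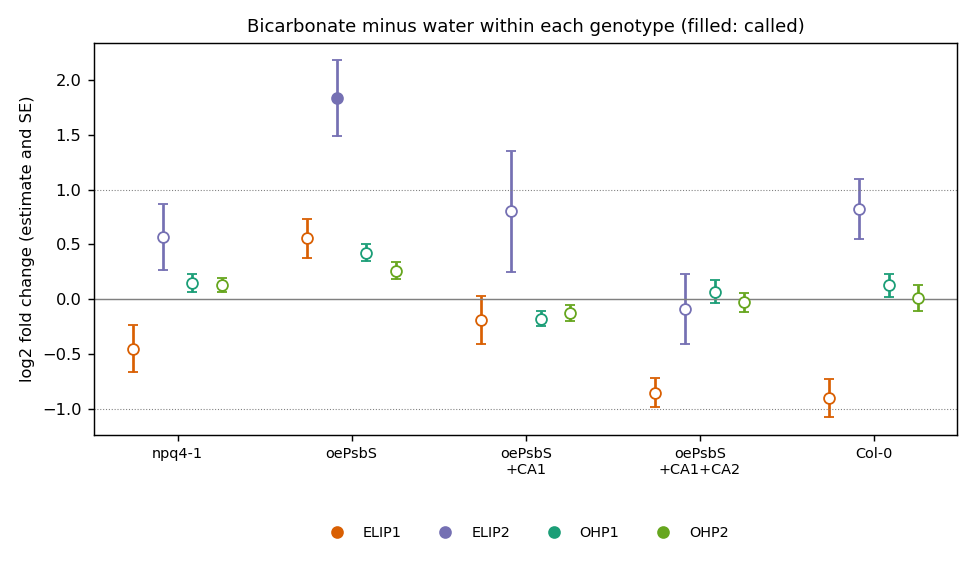
Log2 fold change and SE of bicarbonate over water in each genotype, with filled points for called genes and dotted lines at 1 and -1. ELIP2 in oePsbS is the one filled point, at 1.83, while ELIP1 lies at -0.90 in Col-0, -0.85 in the triple line and 0.56 in oePsbS.

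Averaged over the 5 genotypes, the bicarbonate responses of the 2 ELIPs had opposite signs. The average does not describe every genotype, since ELIP1 was positive in oePsbS alone (0.56) and ELIP2 negative in the triple line alone (-0.09). The mean response was -0.37 ± 0.10 for ELIP1 (adjusted p = 0.00978) and 0.78 ± 0.18 for ELIP2 (adjusted p = 0.00370), both inside the fold limit of 1. By adjusted p alone, 7.73% of genes were higher and 8.05% lower, and 0.8% were called with the fold limit. OHP1 gave 0.11 ± 0.04 (adjusted p = 0.0655) and OHP2 0.05 ± 0.04 (adjusted p = 0.502). The ELIP values kept their sign and their adjusted p under 0.05 without each of the 30 libraries in turn, at -0.42 to -0.32 for ELIP1 and 0.69 to 0.94 for ELIP2. Without the library labelled double line, bicarbonate, replicate 3, they were -0.35 (adjusted p = 0.0193) and 0.72 (adjusted p = 0.00876). In the same average, AP1 among the 5 floral organ markers was called higher (1.05 ± 0.35, adjusted p = 0.0426), as was AP3 (adjusted p = 0.0302). The markers summed to 3.93 to 13.6 CPM over the bicarbonate libraries and 0.852 to 17.5 CPM over the water libraries, and their part in the ELIP values was not tested.

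Responses were compared between genotypes as a difference of differences. The response of the triple line was below that of oePsbS for ELIP1, with a difference of -1.41 ± 0.31 (adjusted p = 0.00542), and for ELIP2, with -1.93 ± 0.57 (adjusted p = 0.0266). Both were called, beside 3.12% of genes, 0.405% downward. By adjusted p alone, 3 of the 5 leaf markers were lower in the same difference (median -0.29). The 5 floral organ markers had a median of 2.00, with 0 of them under an adjusted p of 0.05. The part of these markers in the ELIP differences was not tested. The ELIP1 call held without each library, at -1.64 to -1.31. The ELIP2 call was lost without replicate 1 of oePsbS on water (-1.76, adjusted p = 0.0512), replicate 3 of the same group (-1.95, adjusted p = 0.0580), replicate 2 of oePsbS on bicarbonate (-1.63, adjusted p = 0.0841), replicate 2 of the triple line on water (-1.82, adjusted p = 0.0729) and replicate 2 of the triple line on bicarbonate (-1.74, adjusted p = 0.0802). It was -1.28 on the log2(TPM + 1) scale.

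Against Col-0, the response of oePsbS was higher for ELIP1 by 1.45 ± 0.31, which was not called (adjusted p = 0.0668), beside 0.0211% of genes. It was called without replicate 1 of oePsbS on water (1.68, adjusted p = 0.0214) and without replicate 3 of Col-0 on bicarbonate (1.40, adjusted p = 0.0343). The difference for ELIP2 between the same genotypes was 1.00 ± 0.56 (adjusted p = 0.448). The double line against oePsbS gave -0.74 ± 0.31 for ELIP1 (adjusted p = 0.146) and -1.02 ± 0.59 for ELIP2 (adjusted p = 0.303), with no member called beside 2.13% of genes. Without the library labelled replicate 3 these were -0.67 and -1.33 (adjusted p = 0.245 and 0.210). These contrasts share the oePsbS libraries.

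The balance of the 2 ELIPs was compared between treatments without a test. The ratio of ELIP1 to ELIP2 in TPM had a median of 3.37 over the 15 bicarbonate libraries (1.73 to 6.31), against 7.61 over the 15 water libraries (3.96 to 23.6). In oePsbS the ratios were 1.73 to 3.37 with bicarbonate, against 3.96 to 10.2 with water, and in Col-0 they were 2.23 to 3.49, against 7.09 to 13.3, without overlap in either genotype. They did not overlap in npq4-1 (3.10 to 4.09 with bicarbonate, 4.89 to 8.61 with water) or the triple line (2.65 to 4.96 with bicarbonate, 5.38 to 9.06 with water). The double line overlapped, at 2.61 to 6.31 with bicarbonate (4.91 to 6.31 without the library labelled replicate 3) and 4.87 to 23.6 with water. The ratio of 23.6 came from the library with 4 ELIP2 counts, the lowest in a range of 4 to 72. The share of other gene pairs whose ratios do not overlap was not computed. The ratio of OHP1 to OHP2 was steadier, with a median of 1.45 over the bicarbonate libraries (1.28 to 1.60) and 1.39 over the water libraries (1.27 to 1.54).

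OHP1 and OHP2 differed little between groups, and varied together. In oePsbS, OHP1 was at 133, 134 and 154 CPM with bicarbonate, against 109, 107 and 99.7 CPM with water, higher in every library. OHP2 was at 149, 151 and 174 CPM with bicarbonate, against 132, 132 and 135 CPM with water, also without overlap. Their adjusted p was under 0.05 but the log2 fold changes of 0.42 ± 0.08 (adjusted p = 0.00690) and 0.26 ± 0.08 (adjusted p = 0.0406) stayed inside the fold limit. By adjusted p alone 8.16% of genes were higher and 7.19% lower in this comparison. Of the 5 leaf markers, 3 were higher by adjusted p alone, with sums of 57746 to 59079 CPM with bicarbonate and 53232 to 54113 CPM with water, and their part in the OHP values was not tested. OHP1 kept its adjusted p under 0.05 without each library in turn, at 0.34 to 0.45, while OHP2 did not without replicate 2 of bicarbonate (0.28, adjusted p = 0.0820), replicate 3 of bicarbonate (0.17, adjusted p = 0.140), replicate 2 of water (0.25, adjusted p = 0.141) or replicate 3 of water (0.27, adjusted p = 0.119).

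In the double line on bicarbonate both OHPs were lower than in oePsbS on bicarbonate. OHP1 was at 103, 101 and 110 CPM in the double line, and OHP2 at 124, 127 and 145 CPM, each below every oePsbS value, as were 3480 of the 18999 genes tested. The differences were -0.42 ± 0.09 for OHP1 (adjusted p = 0.00338) and -0.27 ± 0.09 for OHP2 (adjusted p = 0.0411), both inside the fold limit, beside 3.16% of genes called with it and 8.8% lower by adjusted p alone. Without the library labelled replicate 3, they were -0.46 (adjusted p = 0.00658) and -0.34 (adjusted p = 0.0228). OHP2 lost its adjusted p without replicate 1 of the double line (-0.23, 0.140), replicate 2 of the double line (-0.24, 0.120), replicate 2 of oePsbS (-0.30, 0.0665) or replicate 3 of oePsbS (-0.19, 0.206).

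The response of OHP1 in the double line was below that in oePsbS, with a difference of -0.60 ± 0.13 (adjusted p = 0.00979), inside the fold limit, and of -0.64 without the library labelled replicate 3 (adjusted p = 0.0142). OHP2 gave -0.38 ± 0.13 for the same difference (adjusted p = 0.0661), and -0.47 without that library (adjusted p = 0.0404). By adjusted p alone 3.87% of genes were lower there, as were 3 of the 5 leaf markers (median -0.41, and -0.44 without that library), whose part in the OHP difference was not tested. Without the library labelled replicate 3, the response of the double line itself was -0.21 for OHP1 (adjusted p = 0.242) and -0.20 for OHP2 (adjusted p = 0.274). In all genotypes but oePsbS, with all libraries, the bicarbonate responses of the OHPs lay between -0.18 and 0.15. Their genotype contrasts on water, those with oePsbS included, lay between -0.12 and 0.19. None of these responses and contrasts had an adjusted p under 0.05.

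**Figure D4:**
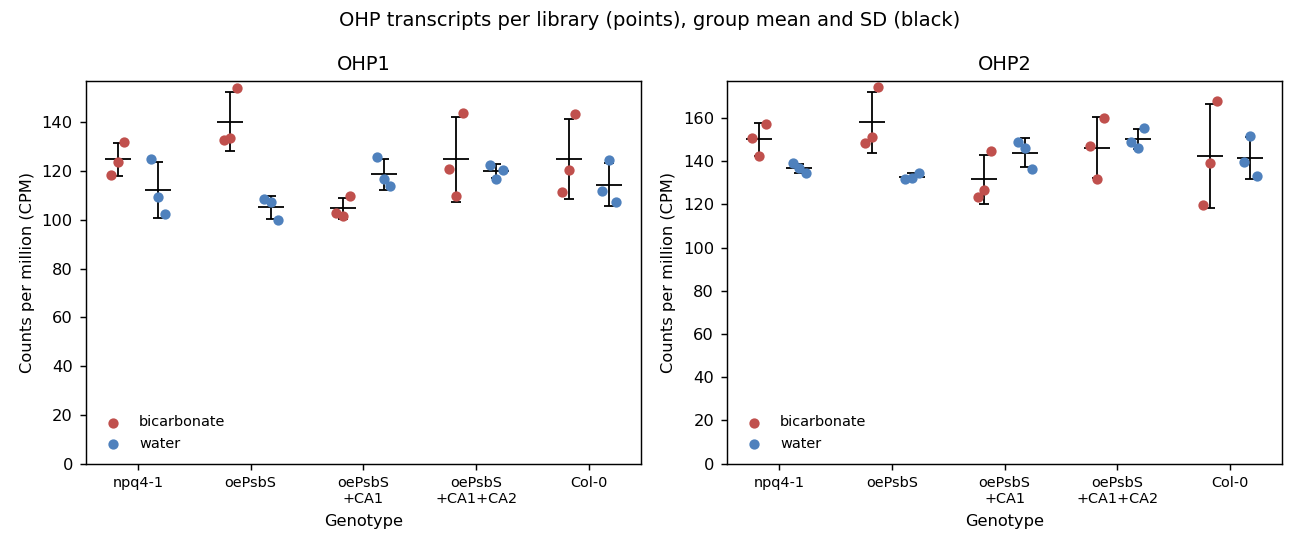
TMM-normalised CPM of OHP1 (left) and OHP2 (right) on linear axes from 0, 1 point per library (red bicarbonate, blue water), with the mean and SD of each group of 3 in black. The oePsbS bicarbonate libraries lie highest on average, at 140 CPM for OHP1 and 158 CPM for OHP2, and the double line on bicarbonate lowest, at 105 and 132 CPM.

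Across the 30 libraries OHP1 and OHP2 had a Pearson correlation of 0.86 (Spearman 0.85) in log2 CPM, and 0.83 in the deviations from group means. It was 0.90 over the 15 bicarbonate and 0.79 over the 15 water libraries. Of 18998 other genes, OHP2 ranked 13 by correlation with OHP1, and OHP1 ranked 2 for OHP2. The genes nearest OHP1 were PSBQA, an extrinsic subunit of the oxygen-evolving complex (0.94), LHCB6, the minor antenna protein CP24 (0.91), and PDE334, a membrane subunit of the chloroplast ATP synthase (0.89). Nearest OHP2 were PDE334 (0.91), OHP1 (0.86) and GDC1, which delivers antenna proteins inside the chloroplast (0.85). These are descriptions over libraries that share depth, scaling and group differences.

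Since the libraries lay in bands by treatment that overlapped in part, the correlation of ELIP1 with ELIP2 was taken within treatment, at 0.50 over the 15 bicarbonate libraries and 0.59 over the 15 water libraries (Spearman 0.55 and 0.65). Without the 2 libraries farthest from the median of ELIP1 these became 0.39 and 0.67. Over all 30 libraries the Pearson correlation of ELIP1 with ELIP2 was 0.25, and it was 0.26 in the deviations from group means. ELIP2 ranked 3835 among the genes by pooled correlation with ELIP1. The genes most like ELIP1 over 30 libraries were F3H, flavanone 3-hydroxylase (0.87), UGT78D2, a flavonoid 3-O-glucosyltransferase (0.86), and AT5MAT, an anthocyanin malonyltransferase (0.85). Those most like ELIP2 were EXPA15, an expansin that loosens cell walls (0.83), PAL1, phenylalanine ammonia-lyase (0.79), and EDA9, a phosphoglycerate dehydrogenase of serine synthesis (0.78). Within treatment, ELIP2 and EXPA15 correlated at 0.77 over the bicarbonate libraries (Spearman 0.70) and 0.76 over the water libraries (Spearman 0.57), and without the 2 libraries farthest from the median of ELIP2 these became 0.66 and 0.34, so the value on water rests on those libraries.

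By group means over the 10 groups, the nearest genes to ELIP1 were AT5G25940, LOX1, a lipoxygenase, and MPK19, a MAP kinase (0.96 each), and F3H stood at 0.90. F3H and ELIP1 correlated at 0.72 over the bicarbonate libraries and 0.94 over the water libraries. F3H averaged 29.7 ± 9.18 CPM in npq4-1, 26.4 ± 4.48 CPM in oePsbS and 55.0 ± 1.11 CPM in the triple line, against 55.4 ± 1.99 CPM in Col-0, all on water (SD, n = 3). F3H and ELIP1 had their lowest means on water in the same 2 lines. F3H was picked here by its correlation with ELIP1 over these same libraries, so this likeness is no separate support.

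**Figure D5:**
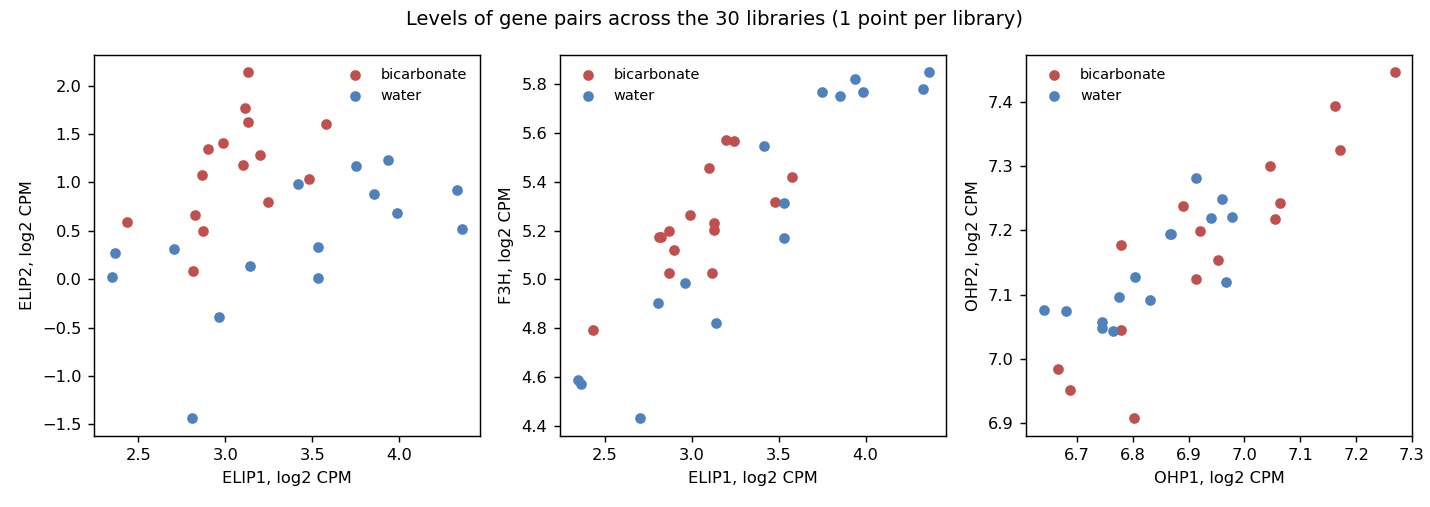
Log2 CPM of ELIP1 against ELIP2, ELIP1 against F3H and OHP1 against OHP2, with 1 point per library (red bicarbonate, blue water) and axes that do not start at 0. ELIP1 and ELIP2 fall in bands by treatment (0.50 on bicarbonate and 0.59 on water, 0.25 over all 30 libraries). OHP1 and OHP2 lie along 1 line (0.90 on bicarbonate and 0.79 on water, 0.86 over all 30 libraries).

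The wider family of antenna-like stress proteins has 10 members here, the 4 above with PsbS, the stress-enhanced proteins SEP1 and SEP2, LIL3-1 and LIL3-2, which hold enzymes of chlorophyll synthesis at the membrane, and LIL6. SEP1 and SEP2 are not the SEPALLATA genes of the flower. In the oePsbS response, 8 of 10 were higher by adjusted p alone and 1, ELIP2, was called, with a median log2 fold change of 0.37, against a median of 0.00 over all genes, of which 8.16% were higher by adjusted p alone and 1.34% called (0.221% upward). The 5 leaf markers, 3 of them higher by adjusted p alone, had a median of 0.34 in the same response, and their part was not tested. SEP1 was at 201 ± 15.9 CPM with bicarbonate and 148 ± 19.3 CPM with water (0.45 ± 0.10, adjusted p = 0.0145), SEP2 at 70.2 ± 6.0 CPM with bicarbonate and 54.2 ± 6.28 CPM with water (0.38 ± 0.10, adjusted p = 0.0251). PsbS itself was at 5181 ± 91.8 CPM with bicarbonate and 4059 ± 288 CPM with water (0.36 ± 0.06, adjusted p = 0.00491). In the responses of Col-0, npq4-1 and the double line none of the 10 had an adjusted p under 0.05, and in the double line the count was again 0 once the library labelled replicate 3 was left out. In the triple line ELIP1 alone did. On water, SEP2 had a difference of -0.50 ± 0.09 in oePsbS against Col-0 (adjusted p = 0.000828), where 4.98% of genes were lower by adjusted p alone, and of 0.46 ± 0.09 in the triple line against oePsbS (adjusted p = 0.00105). In the triple line against oePsbS, SEP1 gave 0.53 ± 0.12 (adjusted p = 0.00291), so that 3 of the 10, ELIP1, SEP1 and SEP2, were higher by adjusted p alone, beside 7.76% of genes.

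The light and UV-B pathway upstream of the ELIPs was represented by 16 genes, HY5 with its partners, photoreceptors and repressors and 3 of the flavonoid enzymes that HY5 activates. In oePsbS against Col-0 on water, chalcone synthase (CHS), the entry enzyme of flavonoid synthesis, fell to 169 ± 30.1 CPM in oePsbS, against 355 ± 37.9 CPM in Col-0 (-1.07 ± 0.18, adjusted p = 0.000584), and F3H fell too (-1.07 ± 0.18, adjusted p = 0.000495). These were the 2 of 16 genes called, beside 1.24% of all genes (0.726% downward), and the list median was -0.12, against 0.00 over all genes. In the triple line against oePsbS, CHS rose to 413 ± 36.1 CPM (1.29 ± 0.18, adjusted p = 6.99e-05) and F3H rose as well (1.06 ± 0.18, adjusted p = 0.000333), again 2 of 16, beside 1.59% of all genes (0.663% upward). In npq4-1 against Col-0, CHS, F3H and FLS1, flavonol synthase, had adjusted p values of 0.0208, 0.0208 and 0.0344 at -0.91, -0.90 and -0.94, none called, beside 0.368% of genes lower by adjusted p alone. HY5 itself had no adjusted p under 0.05 in these 3 contrasts.

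With bicarbonate in oePsbS, 7 of the 15 genes of this list that were tested were higher and 1 lower by adjusted p alone, beside 8.16% of all genes higher and 7.19% lower, with none called. CHS was at 305 ± 26.8 CPM with bicarbonate and 169 ± 30.1 CPM with water (0.86 ± 0.12, adjusted p = 0.00186), and HYH, the close relative of HY5, at 17.2 ± 1.34 CPM with bicarbonate and 9.62 ± 1.65 CPM with water (0.86 ± 0.13, adjusted p = 0.00347). BBX22, a B-box cofactor of HY5, was lower (-0.42 ± 0.09, adjusted p = 0.0141). The list median in this response was 0.38, beside 0.34 for the 5 leaf markers, 3 of them higher by adjusted p alone. The part of the leaf markers was not tested. FLS1 was the 1 gene of the list called in the npq4-1 response, at 29.2 ± 4.78 CPM with bicarbonate and 14.5 ± 3.26 CPM with water (1.01 ± 0.17, adjusted p = 0.0288). In Col-0 none of the list had an adjusted p under 0.05. In the difference between the triple line and oePsbS responses, CHS (-1.41 ± 0.26, adjusted p = 0.00135) and F3H (-1.06 ± 0.25, adjusted p = 0.00822) were called.

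The partners of the OHPs in photosystem II assembly and repair numbered 20. In the oePsbS response, 6 of 20 were higher by adjusted p alone and none was called, beside 8.16% of all genes higher by adjusted p alone and 1.34% called. The list median was 0.16, while the 5 leaf markers, 3 of them higher by adjusted p alone, had a median of 0.34 in the same response, and their part in the list's values was not tested. HCF244, which OHP1 and OHP2 anchor to the thylakoid, was at 229.9 ± 8.94 CPM with bicarbonate and 182 ± 1.71 CPM with water (0.35 ± 0.06, adjusted p = 0.00620). LPA3, an assembly factor of the CP43 subunit, gave 0.43 ± 0.07 (adjusted p = 0.00373), and the proteases DEG5, DEG8 and FTSH5, which degrade damaged D1 protein, gave 0.37, 0.32 and 0.30. In the double line against oePsbS on bicarbonate, 10 of 20 were lower by adjusted p alone, beside 8.8% of all genes, with a list median of -0.24, and without the library labelled replicate 3 the count was again 10 with the median again -0.24. Of the 5 leaf markers, 4 were lower by adjusted p alone (3 without that library), with summed leaf markers of 49816 to 53478 CPM in the double line and 57746 to 59079 CPM in oePsbS. The part of the leaf markers in the OHP values was not tested.

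Chlorophyll synthesis, whose products the ELIPs are thought to bind, was represented by 15 genes. In the oePsbS response these 15 had a median of 0.25, and the 5 leaf markers, 3 of them higher by adjusted p alone, a median of 0.34. The part of the leaf markers was not tested. Of the 15 genes, 10 were higher and 2 lower by adjusted p alone, beside 8.16% and 7.19% of all genes. The 1 gene called was PORA, a light-dependent protochlorophyllide reductase of etiolated seedlings, at 27.2 ± 2.63 CPM with bicarbonate and 72.6 ± 9.17 CPM with water (-1.41 ± 0.10, adjusted p = 0.000193). PORB, its relative in green leaves, was at 484 ± 14.3 CPM with bicarbonate and 761 ± 14.6 CPM with water (-0.64 ± 0.06, adjusted p = 0.000427). On water PORA and ELIP1 had opposite signs, PORA with 1.01 ± 0.16 in oePsbS against Col-0 (adjusted p = 0.000273) and -1.07 ± 0.16 in the triple line against oePsbS (adjusted p = 0.000109). Among the 10 genes of xanthophyll synthesis, which supplies the carotenoids of these proteins, 6 were higher by adjusted p alone in the oePsbS response and none was called, beside the same 8.16% of all genes higher. The β-carotene hydroxylases BCH1 and BCH2 gave 0.71 ± 0.07 (adjusted p = 0.000536) and 0.74 ± 0.09 (adjusted p = 0.00131). The median of these 10 genes was 0.27, beside 0.34 for the leaf markers, whose part was not tested.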

How the data were processed

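The authors extracted RNA from rosette leaves, made stranded poly(A) libraries and quantified transcripts with Salmon (named without a version in the submitters' processing notes) on TAIR10 cDNAs. The deposited files hold, for 48268 transcripts per library, estimated counts that need not be whole, TPM values, and effective lengths, with no filter that the files show. Transcripts were summed per locus here to 27588 loci, of which 27390 matched RefSeq symbols, and estimated counts were rounded. Each of the 4 genes has 1 transcript in the files and whole counts in all 30 libraries.

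Counts were scaled by TMM (factors 0.957 to 1.04) and tested with edgeR 4.0.16 (quasi-likelihood F test, R 4.3.3) after a filter at a minimum count of 10 and a total of 15. Bicarbonate responses were fitted in the 6 libraries of a genotype, all else in 1 fit of 30 libraries with the 10 groups as terms, without covariates. p-values were adjusted over all genes tested by Benjamini-Hochberg. The SE is the absolute log2 fold change divided by the square root of F, an approximation. The test was checked on simulated counts with the same dispersion for all genes and large fold changes. That check does not cover a gene as variable as ELIP2 or the smaller changes given here. Levels are TMM-normalised CPM, and correlations used log2 CPM with a prior count of 2. Intervals of counts are exact Poisson.

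The alternatives were DESeq2 1.42.0, RLE factors, no filter, limma 3.58.1 on log2(TPM + 1), length-scaled TPM, organelle genes left out, other libraries in the fit, the replicate number as a block, adjusted p alone, and each library left out. Counts of list genes without the double-line library labelled replicate 3 on bicarbonate were added after seeing the data.

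The 4 genes, the marker and pathway lists and the rule for named genes were chosen with earlier results of these data known. The rule took the 4 members, the 3 genes most like each by Pearson correlation over libraries and over group means, list genes called in a comparison (up to 6 per list by adjusted p over the responses), and PsbS, CA1 and CA2. List genes named without a call, and all floral markers, were chosen after their values were seen. Promoter windows were read from the TAIR10.1 genome with its own annotation, while the deposited values carry no coordinates.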

Additional observations from a re-analysis of the deposited data

Results flagged for a closer look

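3 results differ between genotypes by a test of the difference itself, in which the bicarbonate response of 1 genotype is subtracted from that of another in edgeR's fit of all 30 libraries. The ELIP1 response in the triple line lay below that in oePsbS (-1.41, adjusted p = 0.00542). Its levels under bicarbonate were lower in all 3 triple-line libraries, as were 8.54% of all genes. They were higher in all 3 oePsbS libraries, as were 16.8% of all genes. The ELIP2 response in the triple line lay below that in oePsbS (-1.93, adjusted p = 0.0266), in a gene with 4 to 72 counts a library. The OHP1 response in the double line lay below that in oePsbS (-0.60, adjusted p = 0.00979), inside the fold limit. Fitted in the 6 libraries of each genotype, these responses were -0.18 (adjusted p = 0.246) and 0.42 (adjusted p = 0.00690). Without the double-line library labelled replicate 3 on bicarbonate, whose CA1 was at 2409 CPM, the difference was -0.64 (adjusted p = 0.0142). In the OHP1 contrast 3 of the 5 leaf markers were lower too by adjusted p alone (median -0.41), and their part was not tested. The same held in the contrast of the 2 ELIPs, with 3 of the 5 lower (median -0.29). All 3 results use the same oePsbS libraries, and no group is large enough for a search for single libraries far from the others.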

How the results depend on the processing

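Over 104 results, 1800 alternative values were computed, of which 1716 kept their direction and their side of the call, 10 lost a call, 12 gained one, none of the called values changed sign, and 62 uncalled values did. Dropping the fold limit, and so calling by adjusted p alone, added the responses of OHP1 (0.42) and OHP2 (0.26) in oePsbS and of ELIP1 in the triple line (-0.85), the mean responses of ELIP1 (-0.37) and ELIP2 (0.78), OHP1 (-0.42) and OHP2 (-0.27) in the double line against oePsbS on bicarbonate, and the OHP1 difference between these responses (-0.60). On log2(TPM + 1) in limma, ELIP1 in npq4-1 against Col-0 on water was -0.98 and not called, and in the fit of the compared groups only, ELIP2 in the triple line against oePsbS on water was 1.14 and called.

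With each library left out, the ELIP1 response in Col-0 ran over -1.06 to -0.81, ELIP1 in npq4-1 against Col-0 on water over -1.30 to -0.87, the ELIP1 difference of oePsbS and Col-0 responses over 1.35 to 1.68, and the ELIP2 difference of triple line and oePsbS responses over -2.24 to -1.63. The cause of these changes was not tested. Same-numbered libraries did not deviate together (3 of 15 correlations over 0.1), so the numbers were not taken as pairs. The replicate block changed no call (ELIP2 response in oePsbS, 1.82 with the block), but the ELIP1 response in Col-0 reached an adjusted p of 0.0280 (-0.89) and in oePsbS ELIP1 0.0495 (0.57) and OHP2 0.0567 (0.26), and the OHP2 difference of double line and oePsbS responses 0.0453 (-0.38), none past the fold limit. ELIP2 is limited by depth, and an adjusted p over 0.05 does not show that its levels were alike.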
